A study of Mus musculus with 6 samples.

Results

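The somatic linker histone H1 genes were examined in whole brains dissected at E15.5 from C57BL/6 embryos of wild-type genotype. The members were taken by symbol, from a gene family that was chosen with earlier results of these data known. They were the replication-dependent genes H1f1, H1f2, H1f3, H1f4 and H1f5 and the replacement genes H1f0 and H1f10, which are 7 of the 20937 genes named in the count tables. Each had 1 RefSeq transcript ID among the 23485 counted. These were NM_030609 for H1f1, NM_015786 for H1f2, NM_145713 for H1f3, NM_015787 for H1f4, NM_020034 for H1f5, NM_008197 for H1f0 and NM_198622 for H1f10. All 7 passed the low-count filter of 10 counts in at least 1 sample, which 13374 IDs passed. There were 3 female and 3 male samples, with no treatment and no altered allele in either sex. RNA of several embryos had been combined in each sample, which therefore gives the mean of a pool. The RNA-seq libraries were made from total RNA, and the samples are named below by sex and replicate number. The question put to the data was whether H1 transcripts differ between the sexes, and whether the replication-dependent and the replacement genes do so alike.

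Linker histones bind the nucleosome where DNA enters and leaves it and help to fold nucleosome arrays into compact chromatin. The replication-dependent H1 genes lie within the large histone gene cluster, are transcribed mainly while DNA is copied, and give mRNAs that end in a stem-loop in place of a poly(A) tail. The replacement genes are transcribed outside S phase as well and give polyadenylated mRNAs. H1f0 protein is known to accumulate as cells leave the cell cycle and differentiate, and H1f10 encodes the divergent variant also called H1x. Because these libraries were not restricted to polyadenylated RNA, both classes could be counted.

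The start regions of the 7 genes are printed first, since they show how the classes are built. Sequences are RefSeq promoter sequences of assembly GRCm38.p6, found by symbol for all 7 genes, and are printed 5′ to 3′ on the strand of the gene from base -130 to base -16 before the annotated start. Capitals mark 3 elements. AAACACA is the H1 box, known from H1 promoters, and CCAATCA is a CCAAT box. For the third element, the TATA-type box, 2 spellings were searched. The letters TATAAA were one of them. The other was TATATA, which reads alike on both strands and can overlap the first.
H1f1, GRCm38.p6 chr13:23763538-23763652, plus strand: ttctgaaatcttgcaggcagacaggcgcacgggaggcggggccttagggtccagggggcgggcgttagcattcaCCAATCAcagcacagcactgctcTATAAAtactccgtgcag
H1f2, GRCm38.p6 chr13:23738677-23738791, plus strand: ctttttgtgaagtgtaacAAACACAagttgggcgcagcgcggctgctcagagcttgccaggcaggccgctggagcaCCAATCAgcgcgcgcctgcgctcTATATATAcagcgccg
H1f3, GRCm38.p6 chr13:23554902-23555016, plus strand: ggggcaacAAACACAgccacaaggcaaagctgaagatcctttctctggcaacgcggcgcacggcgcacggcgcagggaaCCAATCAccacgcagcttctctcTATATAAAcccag
H1f4, GRCm38.p6 chr13:23622574-23622688, minus strand: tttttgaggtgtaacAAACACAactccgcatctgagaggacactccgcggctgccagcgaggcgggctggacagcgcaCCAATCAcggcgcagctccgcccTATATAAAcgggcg
H1f5, GRCm38.p6 chr13:21780641-21780755, minus strand: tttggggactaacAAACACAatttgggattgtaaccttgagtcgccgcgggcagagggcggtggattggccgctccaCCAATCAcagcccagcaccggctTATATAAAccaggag
H1f0, GRCm38.p6 chr15:79028082-79028196, plus strand: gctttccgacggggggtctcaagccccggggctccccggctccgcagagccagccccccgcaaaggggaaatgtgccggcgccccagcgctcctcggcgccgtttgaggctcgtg
H1f10, GRCm38.p6 chr6:87981498-87981612, minus strand: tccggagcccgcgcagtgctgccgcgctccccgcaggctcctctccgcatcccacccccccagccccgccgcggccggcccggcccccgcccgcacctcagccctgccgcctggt
The searches covered both strands of 300 bases, from 250 before the start to 50 within the gene. AAACACA was found in H1f2, H1f3, H1f4 and H1f5, with its first base between -122 and -112. It was not found in H1f1, H1f0 or H1f10, and 7.18% of the 32851 promoters in the table held it. CCAATCA was found in H1f1 to H1f5, with its first base between -56 and -51 (7.82% of all promoters). A TATA-type box lay between -33 and -21 in the same 5 genes (17.1% of all promoters), and H1f3 held another pair further upstream. Among 53 promoters of replication-dependent core histone genes, 7.55% held AAACACA, 54.7% held CCAATCA and 64.2% held a TATA-type box. The 3 elements together were found in 37 promoters of the table (0.113%), which included those of H1f2, H1f3, H1f4 and H1f5. The GC box GGGCGG, not capitalised above, was found in H1f0, H1f1, H1f4, H1f5 and H1f10 (35.7% of all promoters). Neither replacement gene held any of the other 3 elements, and their 300 bases had a GC content of 75% in H1f0 and 77.7% in H1f10, against 45.7% to 54.3% in H1f1 to H1f5.

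The other class feature, the 3′ stem-loop, was searched for in NCBIM37, the assembly of the counts, as a 6-base stem around a 4-base loop within 150 nt after the last annotated coding base. The same sequence was found once in each of H1f1 to H1f5 on the strand of the gene, and it is shown because these genes share it without a change. Capitals mark the paired stem.
Stem-loop of H1f1, H1f2, H1f3, H1f4 and H1f5: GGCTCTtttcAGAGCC
It began 36, 27, 34, 43 and 33 nt after the coding end in H1f1, H1f2, H1f3, H1f4 and H1f5. Of 54 core histone IDs with an annotated coding end, 46 (85.2%) held a stem-loop of this form. The search found none behind H1f10 or behind the annotated end of H1f0. In H1f5 the stem-loop lay outside the annotated transcript, whose end was placed 30 nt before it.

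The 5 replication-dependent genes lie on chromosome 13 in the GENCODE annotation of NCBIM37, and each is annotated as a single protein-coding exon that overlaps no other gene model. H1f3 spans 23646901 to 23650721, H1f2 spans 23830676 to 23832235 and H1f1 spans 23855537 to 23856283 on the plus strand. H1f4 spans 23713624 to 23714371 and H1f5 spans 21871752 to 21872494 on the minus strand. H1f10 (chromosome 6, 87930416 to 87931476, minus strand, 1 coding exon) overlaps the model Gm5577 on the opposite strand. At the place of H1f0 (chromosome 15, 78859152 to 78859689, plus strand), this annotation holds a pseudogene model of 3 exons, shorter than the RefSeq transcript of 2293 nt. How the counting treated strand and reads that map to several places is not given in the sources used here. Of all 50-base stretches of the coding sequence, 22.0% in H1f2, 26.5% in H1f3 and 25.5% in H1f4 also occurred in another of these 3 genes, so the split of reads among them is uncertain. No 50-base stretch of H1f1, H1f5, H1f10 or the H1f0 model occurred in a coding transcript of another gene. Within the coding sequences, H1f2 and H1f3 were the closest pair (87.2% identical bases), and H1f1 had 75.1% to 77.2% identity with H1f2 to H1f5.

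The library totals were 4908565 to 10294443 counts, so single-gene values rested on 94 to 7987 counts for the H1 genes. A count of 0 allows up to 3 counts, 0.291 to 0.611 CPM (counts scaled to a common library total) at these depths, for counting error only. Replicates of the same sex were not copies of each other, and male 1 stood apart. Chi-square divided by its degrees of freedom was 34.4 and 44.9 for male 1 against the other males and 9.03 to 13.8 in all other pairs. Male 1 and male 2 also had the most IDs without a count (6743 and 6280, against 4120 to 5183 in the others). These 2 libraries had the highest replication-dependent H1 sums given below, and the part of this in the H1 values was not tested beyond leaving each of them out. Nothing in the labels gives a batch, so p-values measure the spread between these pools. The tissue label was checked against marker lists. Tubb3, a neuronal tubulin, and Vim, an intermediate filament of progenitors, averaged 1364 and 1684 CPM in females. Summed neuronal markers reached 2742 to 3967 CPM and summed progenitor markers 2724 to 3249 CPM. Eomes, a marker of intermediate progenitors, averaged 0 CPM in females and 0.0509 CPM in males. Counts were per transcript ID, and some other IDs were also low. In females Ptma averaged 0.100 CPM, and the Snap25 IDs averaged 0.510 and 0.770 CPM. A value near 0 is therefore not read as absence of the gene, and whether its reads were lost in the counting was not tested. Transcripts of other tissues were abundant, at 17434 to 25712 CPM summed over fibroblast collagens and related matrix genes and 2591 to 3609 CPM over skeletal muscle genes. H1 levels are therefore those of the whole sample, not of neural cells alone, and in such bulk RNA fewer cells of a type and less RNA per cell cannot be told apart.

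H1 transcripts were abundant in every sample. H1f4, one of the main somatic subtypes, had 563, 473 and 625 CPM in female samples 1, 2 and 3 and 825, 654 and 623 CPM in male samples 1, 2 and 3, after TMM scaling of the library totals. Female 2 was lowest and male 1 highest, and male 3 lay just under female 3, so the sexes overlapped. H1f1, the variant most divergent in coding sequence among the replication-dependent genes, had 488, 563 and 499 CPM in females and 705, 589 and 465 CPM in males. Here the order among samples was another one, with female 2 the highest female and male 3 the lowest of all samples.

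H1f2, a subtype found in most somatic cells, had 307, 258 and 459 CPM in females and 665, 512 and 516 CPM in males. Every male sample was above every female sample. H1f3, its closest relative in sequence, had 379, 314 and 481 CPM in females and 696, 565 and 497 CPM in males. The sexes were again apart, although male 3 exceeded female 3 by little. H1f5, a further S phase subtype, had 255, 218 and 328 CPM in females and 403, 352 and 304 CPM in males. Male 3 was below female 3, so the ranges overlapped.

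Among the replacement genes, H1f0 had 434, 497 and 633 CPM in females and 647, 603 and 589.7 CPM in males. Female 3 lay within the male range, and the males were close together (SD 29.8 CPM, against 102 CPM in females, n = 3 each). H1f10 was the least abundant member, with 22.3, 18.7 and 37.3 CPM in females and 51.4, 34.8 and 28.8 CPM in males. Its lowest count was 94, in female 2, so its values carry more counting error than those of the others. Female 3 exceeded 2 of the 3 males.

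**Figure D1:**
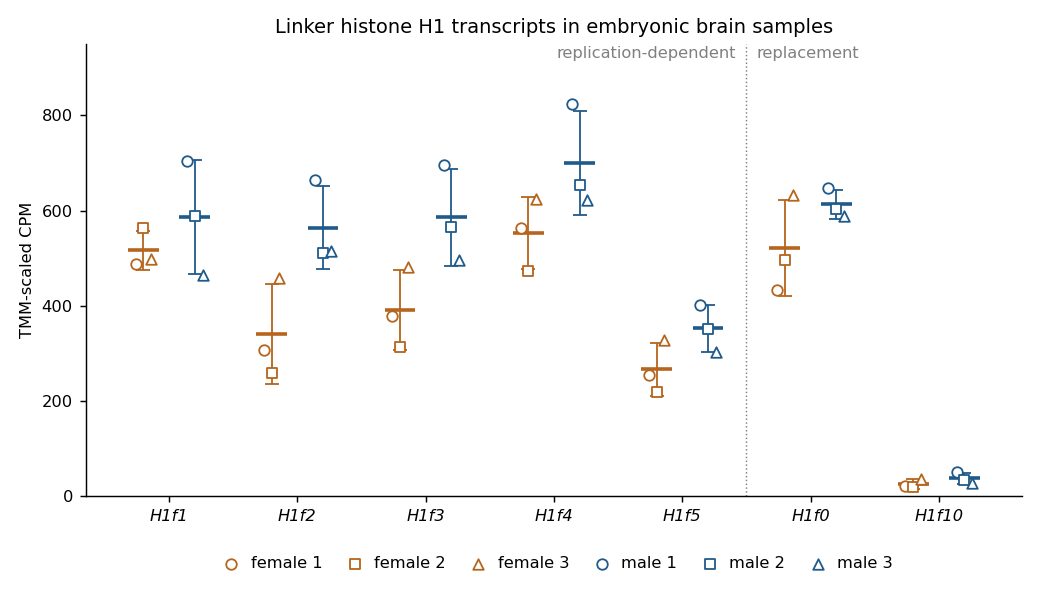
TMM-scaled CPM (vertical axis) of each H1 transcript in each sample, with females in brown and males in blue, the replicate number given by the symbol, the bar at the mean and whiskers of 1 SD (n = 3). H1f2 and H1f3 are the members whose male points all lie above the female points, and H1f10 lies near the bottom at 18.7 to 51.4 CPM.

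Levels of different genes were compared per kilobase of RefSeq transcript. In the mean of the 6 samples H1f4 stood at 802 CPM per kilobase, followed by H1f1 (740.2), H1f3 (629.7), H1f2 (625), H1f5 (390.3), H1f0 (247) and H1f10 (30.3). H1f3 exceeded H1f2 in 3 of 6 samples, so these neighbours did not differ beyond the spread, and H1f4 exceeded H1f1 in 5 of 6 and H1f1 exceeded H1f3 in 5 of 6. From H1f2 downwards each step held in 6 of 6 samples. H1f5 exceeded H1f0 by 1.27 to 1.80 times and H1f0 exceeded H1f10 by 5.82 to 12.3 times within a sample. The order depends on the transcript models. The GENCODE lengths of H1f0 (534 nt), H1f2 (1560 nt) and H1f3 (3821 nt) are far from the RefSeq lengths of 2293, 725 and 776 nt. With GENCODE lengths H1f0 came first at 1062 CPM per kilobase and H1f3 last but 1 at 128.

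Expressed as shares of the H1 pool per kilobase, H1f4 supplied 22.0% to 25.5% of the pool in every sample. H1f1 supplied 23.3%, 28.7% and 19.4% in females and 20.3%, 20.8% and 18.2% in males. The H1f2 share was 15.0%, 13.5% and 18.4% in females and 19.7%, 18.6% and 20.7% in males, and the H1f3 share was 17.3%, 15.4% and 18.0% in females and 19.3%, 19.2% and 18.6% in males. For both H1f2 and H1f3 the male shares were all above the female shares, a comparison within libraries that does not depend on how libraries were scaled. H1f5 supplied 10.5% to 12.0%, H1f0 6.06% to 8.25% and H1f10 0.671% to 1.04%, with no separation of the sexes. All these shares rest on RefSeq lengths. With GENCODE lengths, which put H1f0 at 1062 and H1f3 at 128 CPM per kilobase, the shares would be others and were not computed.

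**Figure D2:**
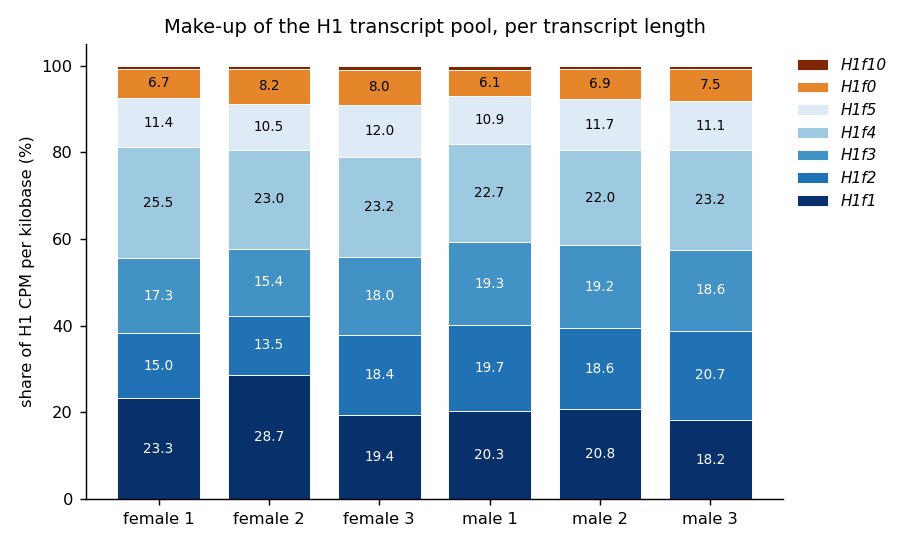
Share of each gene in the summed H1 CPM per kilobase of RefSeq transcript (vertical axis, percent) in each of the 6 samples. Replication-dependent genes are in blue and replacement genes in orange and brown. H1f1 takes its largest share in female 2 (28.7%), where H1f2 takes its smallest (13.5%).

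The sexes were compared with edgeR's quasi-likelihood test over all 13374 IDs, and 0 of the 7 H1 transcripts were called at a Benjamini-Hochberg adjusted p under 0.05, against 0.0299% of all tested IDs. Mean levels were higher in males for each of the 7, where 49% of all tested IDs had a log2 fold change above 0. The largest difference was in H1f2, whose mean was 342 CPM ± 105 in the female and 564 CPM ± 87.2 in the male samples (SD, n = 3 each), which is 1.65-fold. On the log2 scale this came to 0.72 in the fit (SE 0.19, edgeR adjusted p 0.338). H1f3 followed, at 391 CPM ± 83.9 in females and 586 CPM ± 101 in males (SD, n = 3 each), with a log2 fold change of 0.58 (SE 0.17, edgeR adjusted p 0.341). H1f10 had a log2 fold change of 0.53 but an SE of 0.26 (edgeR adjusted p 0.450). H1f5 and H1f4 had 0.40 (SE 0.16, edgeR adjusted p 0.385) and 0.34 (SE 0.14, edgeR adjusted p 0.397). H1f0 had 0.23 (SE 0.14, edgeR adjusted p 0.536) and H1f1 0.18 (SE 0.15, edgeR adjusted p 0.650). The median over the 7 was 0.40, beside -0.01 over all tested IDs.

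At an unadjusted edgeR p under 0.05, the 4 genes H1f2, H1f3, H1f4 and H1f5 were higher in males, against 6.68% of all tested IDs, and none was higher in females. This count was 2 without female 1, without female 2, without male 1 and with length and GC trends removed, and 6 without female 3 and without male 3. The number over all tested IDs moved too. It was 454 of 13221 without female 1, 412 of 13201 without female 2 and 565 of 13270 without male 1. With the trends removed it was 791 of 13374, and it was 1347 of 13162 without female 3 and 1064 of 12997 without male 3. All male values lay above all female values for 2 of the 7, H1f2 and H1f3, against 8.7% of all tested IDs. DESeq2 called these same 2 genes higher in males, where it called 0.538% of all tested IDs in that direction. Their DESeq2 adjusted p-values were 0.0210 for H1f2 and 0.0439 for H1f3, and over all edgeR and DESeq2 alternatives the adjusted p ran from 0.000105 to 0.809 for H1f2 and from 0.00434 to 0.809 for H1f3. They were also called by DESeq2 with 1 RUVr factor and by edgeR without a low-count filter, and H1f2 alone was called by edgeR without female sample 3 (adjusted p 0.0364). No H1 gene was called in the other 14 alternatives. Whether the difference in H1f2 was itself larger than that in H1f1 was not tested.

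Every member kept a log2 fold change above 0 in each of 18 alternatives, but the size depended on a few of them. Log2 fold change was related across IDs to transcript length (Spearman's rho -0.25) and to GC content (rho 0.28) over 12750 IDs, which are not independent replicates. With the trends of both removed by GENCODE lengths, the log2 fold change was 0.76 for H1f3, 0.63 for H1f2, 0.24 for H1f5, 0.21 for H1f10, 0.10 for H1f4, 0.05 for H1f1 and 0.03 for H1f0. With RefSeq lengths for H1, it was 0.62 for H1f3, 0.58 for H1f2 and 0.13 for H1f0, and the other 4 genes differed little from those values. Without male sample 1 it was 0.59 for H1f2, 0.44 for H1f3, 0.29 for H1f5, 0.25 for H1f10, 0.20 for H1f4, 0.19 for H1f0 and 0.03 for H1f1. Without female sample 3 it was 1.01 for H1f2, 0.91 for H1f10 and 0.41 for H1f0. H1f0 had 0.11 without female 1, H1f10 had 0.35 without female 2, and H1f1 had 0.33 without male 3.

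**Figure D3:**
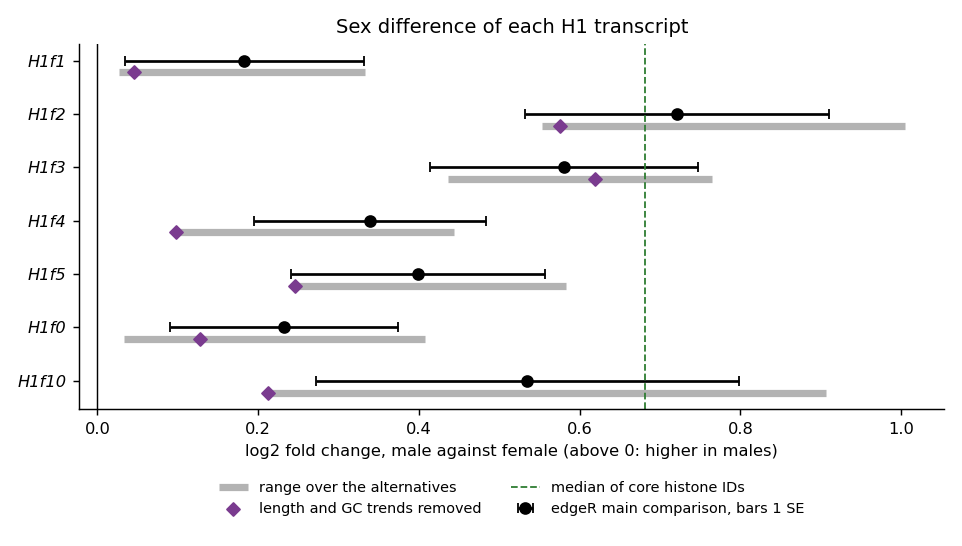
Log2 fold change of each H1 transcript, male against female (horizontal axis), with the edgeR value and 1 SE in black, the range over 18 alternatives in grey and the value with length and GC trends removed (RefSeq lengths) as a diamond. H1f2 and H1f3 stay between 0.44 and 1.01, while H1f1 and H1f0 reach down to 0.03.

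The 2 classes were then compared as sums. The replication-dependent H1 sum was 1993, 1826 and 2391 CPM in females and 3294, 2671 and 2404 CPM in males, so all males were above all females, with male 3 above female 3 by a small margin. The means were 2070.1 CPM ± 290.2 and 2789.7 CPM ± 456 (SD, n = 3), a difference of 0.43 on the log2 scale, or 1.34-fold, beside a pooled SD of 0.22. It was 0.30 without male 1 and 0.45 without male 2. The replacement H1 sum, of which nearly all is H1f0, was 457, 516 and 671 CPM in females and 698, 638 and 618 CPM in males. Female 3 lay within the male range here. The difference in this sum was 0.27 on the log2 scale (1.20-fold, pooled SD 0.21), and 0.06 with length and GC trends removed by the GENCODE lengths. With those lengths the log2 fold change of H1f0 was 0.03, against 0.13 with its RefSeq length.

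Within each library the ratio of the replication-dependent to the replacement sum was 4.36, 3.54 and 3.57 in females and 4.72, 4.19 and 3.89 in males. Female 1 lay within the male range. The difference of 0.16 on the log2 scale was about as large as the pooled SD of 0.157. It was 0.04 when each gene was given the same weight and 0.27 with length and GC trends removed (GENCODE lengths), so its size depended on the processing. The sums were not tested, since they are scores over chosen genes.

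Across the 6 samples the members other than H1f1 followed each other. Pearson's r of log2 CPM was 0.98 between H1f2 and H1f3 and 0.94 to 0.99 among H1f2, H1f3, H1f4 and H1f5. H1f10 had r of 0.93 to 0.98 with these 4 genes, and H1f0 had 0.72 to 0.86. H1f1 had r of 0.40 to 0.56 with the other members. These values describe 6 pools that share their sex labels and scaling. H1f2, H1f3 and H1f4 also share the 50-base stretches counted above, whose part in these correlations was not tested.

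Replication-dependent core histones, which form the nucleosome that H1 binds, are set beside H1 next. Of 49 tested IDs of replication-dependent core histone genes, 47 had higher means in males, against 49% of all tested IDs. At an unadjusted edgeR p under 0.05, 36 were higher in males, against 6.68% of all tested IDs. Of the 49 core histone IDs 1 was called, against 0.0299% of all tested IDs. The median log2 fold change of the core histone IDs was 0.68, beside 0.40 for the 5 replication-dependent H1 genes, and this gap was not tested. With length and GC trends removed (GENCODE lengths) the medians were 0.44 and 0.24, and without female sample 2 they were 0.50 and 0.27. The IDs with the smallest p in this list were the H4 genes H4c2 (log2 fold change 1.25, edgeR adjusted p 0.0112), H4c8 (0.86, edgeR adjusted p 0.157) and H4c11 (1.35, edgeR adjusted p 0.338). The sum over the list was 5605, 4608 and 6439 CPM in females and 9527, 8712 and 6939 CPM in males. The ratio of the replication-dependent H1 sum to this core histone sum, chosen after the values were seen, was 0.356, 0.396 and 0.371 in females and 0.346, 0.307 and 0.346 in males. All females lay above all males, so there was less H1 CPM per core histone CPM in the male libraries, and this was not tested. Core histone copies share reads, so single core histone values are uncertain.

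Some of the nearest annotated genes on either side of the H1 genes in the cluster were core histones. H3c1, 1281 bp from H1f1, had a log2 fold change of 0.84 (edgeR adjusted p 0.396), beside 0.18 for H1f1 itself. H3c3, 4606 bp from H1f2, had 0.73 (edgeR adjusted p 0.344), and H4c6 and H3c6 on either side of H1f3 had 0.69 each (edgeR adjusted p 0.338 for both). H3c11, 2289 bp from H1f5, had 0.67 (edgeR adjusted p 0.341). Beside H1f0, Gcat, a glycine metabolism enzyme gene 1614 bp away, had 0.39 (edgeR adjusted p 0.669). None of these neighbours was called. Hist1h2be, 630 bp from H1f4, and the models U6 (H1f4), Gm11338 (H1f2), Gm11274 (H1f5) and Rps19-ps9 (H1f10) had no matched ID. Trim38, on the other side of H1f1, had at most 4 counts in a sample and was not tested, and Triobp beside H1f0 and Rab7 beside H1f10 were likewise below the low-count filter.

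**Figure D4:**
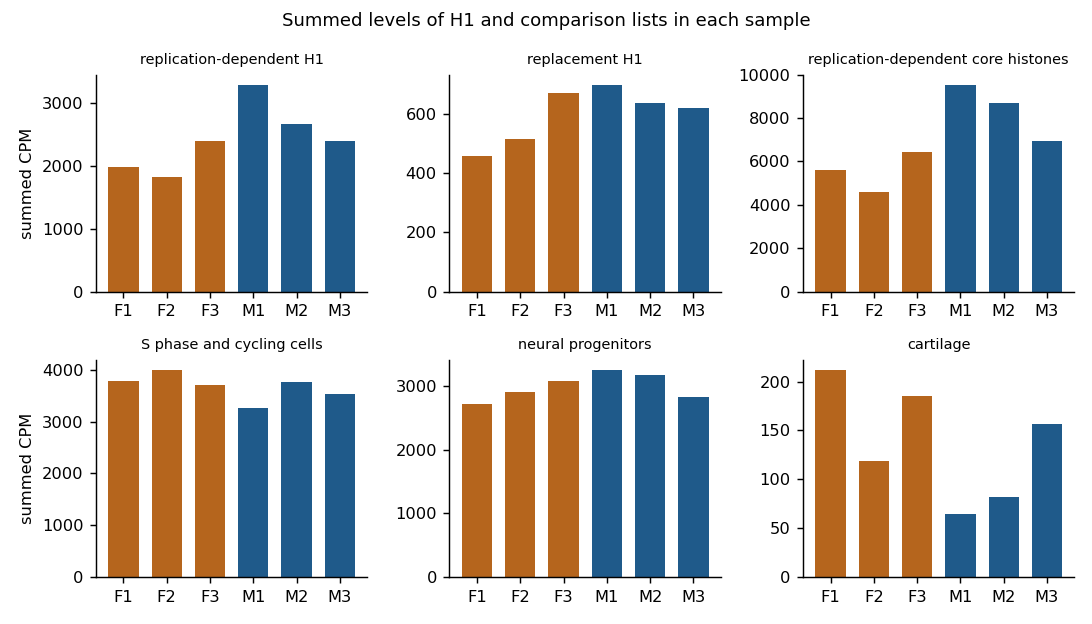
Summed TMM-scaled CPM (vertical axes, each from 0) of 6 gene lists in female samples 1 to 3 (brown, F1 to F3) and male samples 1 to 3 (blue, M1 to M3). Replication-dependent H1 and core histone sums are higher in the males, the S phase sum (with Mki67) is not, and the cartilage sum is lowest in male 1 and male 2 (64.0 and 81.5 CPM).

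Other genes around H1 were read from lists. Replacement core histones were mixed, with 2 of 4 tested IDs higher in each sex and a median of 0.08. The smallest p values were those of H3f3a, an H3.3 gene (log2 fold change 0.78, edgeR adjusted p 0.338), Macroh2a2, a macroH2A gene (log2 fold change 0.19, edgeR adjusted p 0.589) and H2az2, an H2A.Z gene of about 1 CPM (log2 fold change -0.44, edgeR adjusted p 0.844). Genes of histone mRNA synthesis and 3′ processing had a median of 0.12, with 8 of 11 tested IDs higher in males and 0 at an unadjusted edgeR p under 0.05. Lsm11, of the U7 particle that cuts histone mRNA, had 0.24 (edgeR adjusted p 0.477), Npat, the histone gene coactivator, had -0.22 (edgeR adjusted p 0.480), and Ncbp1, of the cap-binding complex, had -0.16 (edgeR adjusted p 0.583). Slbp, which binds the stem-loop, was not among the IDs matched by symbol and was not analysed here.

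Chaperones, modifiers and binding partners of H1 had a median of 0.11, with 11 of 17 tested IDs higher in males. At an unadjusted edgeR p under 0.05, 2 of them were higher in males, against 6.68% of all tested IDs, and 0 were called. Hmgn1, a nucleosome-binding protein that competes with H1, had 0.37 (edgeR adjusted p 0.344), Cdk1, a kinase that phosphorylates H1, had 0.38 (edgeR adjusted p 0.375), and Parp1, which binds nucleosomes in competition with H1, had 0.31 (edgeR adjusted p 0.453). Of the germ cell H1 genes, H1f6 was at the edge of detection with 2 to 24 counts. In the fit it differed by 0.86 on the log2 scale (SE 0.63, edgeR adjusted p 0.606). H1f7 had 2 counts in female 1 and was listed at 0 in the other 5 samples.

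Since replication-dependent H1 is transcribed mainly in S phase, markers of cycling cells are set beside it. The median over 14 tested IDs of this list was 0.02, with 8 higher in males, 1 at an unadjusted edgeR p under 0.05 in each direction and 0 called. Over all 13374 tested IDs, 6.68% were higher in males at that level and 644 IDs were higher in females. Pcna, the sliding clamp of replication, had a log2 fold change of 0.54 (edgeR adjusted p 0.341), Mcm2, of the replicative helicase, had 0.19 (edgeR adjusted p 0.557), and Mki67, a proliferation marker, had -0.42 (edgeR adjusted p 0.371). The sum of the list was 3784, 3997 and 3721 CPM in females and 3270.4, 3768 and 3544 CPM in males. Male 1, with the highest H1 sum, had the lowest sum of cycling markers, but this rested on Mki67, at 883 CPM in male 1 and 1244 to 1689 CPM in the others. Without Mki67 (an alternative chosen after seeing the data) the sum was 2220.1, 2308 and 2401 CPM in females and 2387, 2471 and 2300.1 CPM in males. The ratio of replication-dependent H1 to the sum of the whole list, with Mki67, was also chosen after the values were seen. It was 0.527, 0.457 and 0.643 in females and 1.01, 0.709 and 0.678 in males, all males above all females and not tested. Without Mki67 it was 0.898, 0.791 and 0.996 in females and 1.38, 1.08 and 1.05 in males. No ID of this list was at 0 in all samples, although Mcm5 averaged 0 CPM in females and 0.0344 CPM in males. As with Eomes, this is not read as absence of the gene. Tyms had no matched ID.

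Markers of cell types were measured as well, and their part in the H1 values was not tested. Neural progenitor markers had a median of 0.27 over 7 tested IDs. At an unadjusted edgeR p under 0.05, where 6.68% of all tested IDs were higher in males, 3 of the 7 were. These were Hes5 (log2 fold change 0.77), Hes1 (0.37) and Sox2 (0.39), all transcription factors of progenitors, with edgeR adjusted p-values of 0.338, 0.378 and 0.378. Their summed level was 2724 to 3084 CPM in females and 2825 to 3249 CPM in males. Neuron markers had a median of 0.08, with 6 of 9 tested IDs higher in males. At an unadjusted edgeR p under 0.05, 2 of them were higher in males, against 6.68% of all tested IDs, and 0 were called. The smallest p values were those of Gap43, Tubb3 and Dcx, with log2 fold changes of 0.58, 0.39 and 0.55 and edgeR adjusted p-values of 0.341, 0.356 and 0.550. Their summed level was 2742 to 3237 CPM in females and 3115 to 3967 CPM in males.

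Cartilage markers went the other way, with a median of -0.73 over 5 tested IDs. At an unadjusted edgeR p under 0.05, where 644 of all 13374 tested IDs were higher in females, 3 of the 5 were (Col9a1, Matn3 and Matn1). None of the 5 was called. Their summed level was 119 to 212 CPM in females and 64.0 to 156 CPM in males. Male 1 had the lowest cartilage sum and the highest H1 sum. Skeletal muscle markers summed to 3154 to 3609 CPM in females and 2591 to 3444 CPM in males (median -0.20 over 5), and markers of meninges and fibroblasts to 18849.5 to 23239 CPM and 17434 to 25712 CPM (median -0.04 over 6). Surface epithelium summed to 626 to 674 CPM in females and 556 to 1129.9 CPM in males (median 0.32 over 3). Choroid plexus markers summed to 465 to 554 CPM in females and 579 to 740.0 CPM in males (median 0.10 over 3), and erythroid markers to 715 to 968 CPM and 599 to 1131 CPM (median -0.17 over 3). Microglia and endothelium markers summed to 614 to 656 CPM in females and 504 to 602 CPM in males (median -0.15 over 4). No marker ID of these lists was at 0 in all samples, but some listed markers had no matched ID. These were Pax6 (progenitors), Rbfox3 (neurons), Tnnt3 (skeletal muscle) and Folr1 (choroid plexus). Hba-a1, Hba-a2 and Hbb-bs (erythroid) and Aif1 and Pecam1 (microglia and endothelium) had none either. The medians and sums are those of partial lists.

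The transcripts whose levels ran most like H1 were taken from the 8351 IDs that averaged 50 counts or more, by Pearson's r of log2 CPM over the 6 samples, as a description. Closest to the replication-dependent H1 sum were Echs1 (r 0.997), 2410006H16Rik, Panx1, Hsdl1 and Phb2 (r 0.995 for the fifth). H1f0 ran closest to Thnsl1 (r 0.994), Eif1a, Gm13889, Vps4b and Pantr1. None of these was a core histone gene. Since only the 5 highest of 8351 IDs were kept, this does not tell how closely core histones ran with H1. All of these correlations rest on the same 6 pools.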

How the data were processed

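RNA-seq of 6 samples of pooled embryonic brain RNA, 3 per sex, was analysed from 1 count table per sample. The values deposited by the authors are raw counts per RefSeq transcript ID, not normalised. The submitters' processing notes name Trimmomatic 0.32, TopHat2 2.1.1, Cufflinks 2.2.1, featureCounts 1.5.1 and the assembly mm9 (NCBIM37). The study's own comparison used DESeq2 with RUVr, which takes factors of unwanted variation from model residuals. The libraries were stranded total RNA libraries, but the strand setting of the counting and the treatment of multiply mapped reads are not given in the sources used here, so counts of near-identical histone copies are uncertain.

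Symbols came from a RefSeq gene table (99.5% of IDs matched). IDs that reached 10 counts in any sample were compared, male against female, with edgeR 4.0.16 (R 4.3.3; TMM, glmQLFit and glmQLFTest) and Benjamini-Hochberg adjustment over all of them. Standard errors follow from each log2 fold change and its F value. The fits were tested on simulated data. The alternatives were RLE and upper-quartile factors, 3 other filters, DESeq2 1.42.0, 1 RUVr factor, the replicate number as a block, IDs summed per gene, offsets for length and GC content, and leaving out each sample. RefSeq lengths for H1 in those offsets, H1f0 alone as the replacement sum, and cycling markers without Mki67 were alternatives chosen after seeing the data. Gene sums are of TMM-scaled CPM and were not tested.

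All members are named in the text. From each list of genes around H1, and of progenitors, neurons and cartilage, the 3 IDs with the smallest p are named. Lists of other cell types are given by medians and sums. The nearest annotated genes, and the 5 transcripts most like the replication-dependent H1 sum and H1f0, are named too, and those most like H1f10 are not reported here. In several lists some genes had no matched ID and entered no median or sum. Other names (Vim, Eomes, Mcm5, Ptma, Snap25, Slbp and other genes without a matched ID) were chosen after the values were seen. The members and lists were chosen with earlier results of these data known. Promoters are RefSeq sequences (GRCm38.p6), positions are from GENCODE vM1 on NCBIM37, and figures were drawn with matplotlib 3.10.9.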

Additional observations from a re-analysis of the deposited data

How the results depend on the processing

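The direction of every H1 transcript and of the 2 sums and their ratio was the same in each alternative run. The number of H1 transcripts called, 0 in the edgeR comparison, was 2 without a low-count filter, 2 with DESeq2 and 2 with DESeq2 and 1 RUVr factor, and 0 to 1 when 1 sample was left out. The number of transcripts called in all, 4 in that comparison, was 276 without a filter, 1 with 10 counts in every sample, 107 with DESeq2, 36 with edgeR and 1 RUVr factor and 370 with DESeq2 and 1 RUVr factor. It was 4 to 51 when 1 sample was left out, where leaving out female 3 gave 51, male 1 gave 12, male 2 gave 8 and male 3 gave 7. The median log2 fold change of all IDs was -0.11 in the unfiltered fit. At an unadjusted p under 0.05 the split of 893 IDs higher in males and 644 in females turned to 673 and 937 under upper-quartile scaling. It was 1155 and 1229 when 1 RUVr factor was added in edgeR, 861 and 1038 when it was added in DESeq2, and 565 and 694 when male 1 was left out. The causes of these changes were not tested. The replication-dependent sum differed by 0.30 to 0.54 on the log2 scale over the samples left out, the replacement sum by 0.15 to 0.42 and their ratio by 0.08 to 0.26. With H1f0 alone as the replacement sum the difference was 0.25 and the ratio 0.18. The labels do not say whether the replicate numbers pair the samples. Deviations of same-numbered samples had correlations of -0.29, -0.06 and -0.20, which cannot decide this with so few samples. With the replicate number as a block 4 transcripts and 0 H1 transcripts were called. Depth limits what can be said of H1f10, the member with the fewest counts.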
